A study of Homo sapiens with 6 samples.

Results

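The genes described here were the MYC, MAX and MXD network, 10 genes taken by symbol from the Ensembl identifiers of the deposited tables, out of 61496 features in all. They were MYC, MYCN and MYCL, their shared partner MAX, the 4 MXD genes MXD1, MXD3, MXD4 and MXI1, and the further MAX partners MNT and MGA. RNA was sequenced from U251, an established human glioma cell line, in 3 libraries of untreated control cells and 3 libraries of cells exposed to sevoflurane (Sev), an inhaled anaesthetic, for 2 h. All libraries came from this single line grown in DMEM with FBS. The deposited protocol lists Sev concentrations of 1.7, 3.4 and 5.1%, the labels assign none of them to a library, and the study's text ties the transcriptome to 5.1%. The study's methods describe its quantitative data as independent experiments in general, but neither they nor the labels say so of these libraries, so p-values measure the spread between these libraries, which may be technical.

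MYC proteins activate transcription as dimers with MAX, which bind short DNA elements called E-boxes. MXD proteins, MNT and MGA also pair with MAX on such elements, and their dimers repress transcription, the MXD proteins and MNT by bringing in the SIN3 corepressor. MXD1, MXD4 and MNT can also pair with MLX, a relative of MAX. MYC drives ribosome production and growth, its mRNA and protein are short-lived, and MYC is often raised in glioma.

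Library totals lay between 38624292 and 46318311 counts, and the first principal component of normalized counts separated the 3 Sev-treated libraries from the 3 control libraries, while the second spread Sev library 2 from Sev library 3. Levels are in CPM, counts per library total after TMM scaling, and a call is an adjusted p-value under 0.05 in edgeR's quasi-likelihood test over 27514 features. By this rule Sev-treated cells had higher values for 22.1% and lower values for 21.5% of the tested features. Scaling by library size alone gave 4665 higher and 7502 lower features in place of 6094 and 5920, and moved the median log2 fold change of all features from -0.0056 to -0.15. Among the glioma line markers, GFAP lay between 201 and 373 CPM and VIM between 5123 and 6497 CPM in every library. The 8 markers, with VIM as most of the sum, added up to 7743 to 8666 CPM in control and 8785 to 9286 CPM in Sev-treated libraries. Of these markers S100B and SOX2 fell and CD44 rose. CHI3L1 was barely detected, with 14, 11 and 7 counts in control and 0, 3 and 0 counts in Sev-treated cells, and was filtered out. Markers of immune cells summed to at most 5.24 CPM, with AIF1 and CD3E at 0 everywhere, those of epithelial cells to at most 0.293 CPM, and those of endothelial cells, neurons and oligodendrocytes to at most 10.4, 24.9 and 8.63 CPM. In each of these last lists 1 marker rose, PECAM1 1.89-fold to at most 1.46 CPM, SYT1 1.46-fold to at most 21.5 CPM and MBP 2.01-fold to at most 6.08 CPM, and their part in the results was not tested.

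After Sev the network moved in opposite directions. MYC rose 3.13-fold, while MAX, MYCL, MXD1, MXD3, MXI1 and MGA fell, and MYCN, MXD4 and MNT were not called. Thus 1 of the 10 genes, all of them tested, was called higher and 6 lower, beside 22.1% and 21.5% of all tested features. The median log2 fold change of the network was -0.58. In 7 of the 10 the control and Sev-treated libraries did not overlap, 1 of them higher and 6 lower after Sev, where 28.3% of the tested features were higher and 28.2% lower without overlap. With the study's threshold, a log2 fold change beyond 1 in either direction with an unadjusted p under 0.05, MYC was higher and MXI1 was lower, where 11.4% of the tested features were higher and 12.0% were lower. MYC, MAX, MXD3 and MGA kept their calls without each library in turn, whereas those of MYCL, MXD1 and MXI1 did not, as given with each gene.

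**Figure D1:**
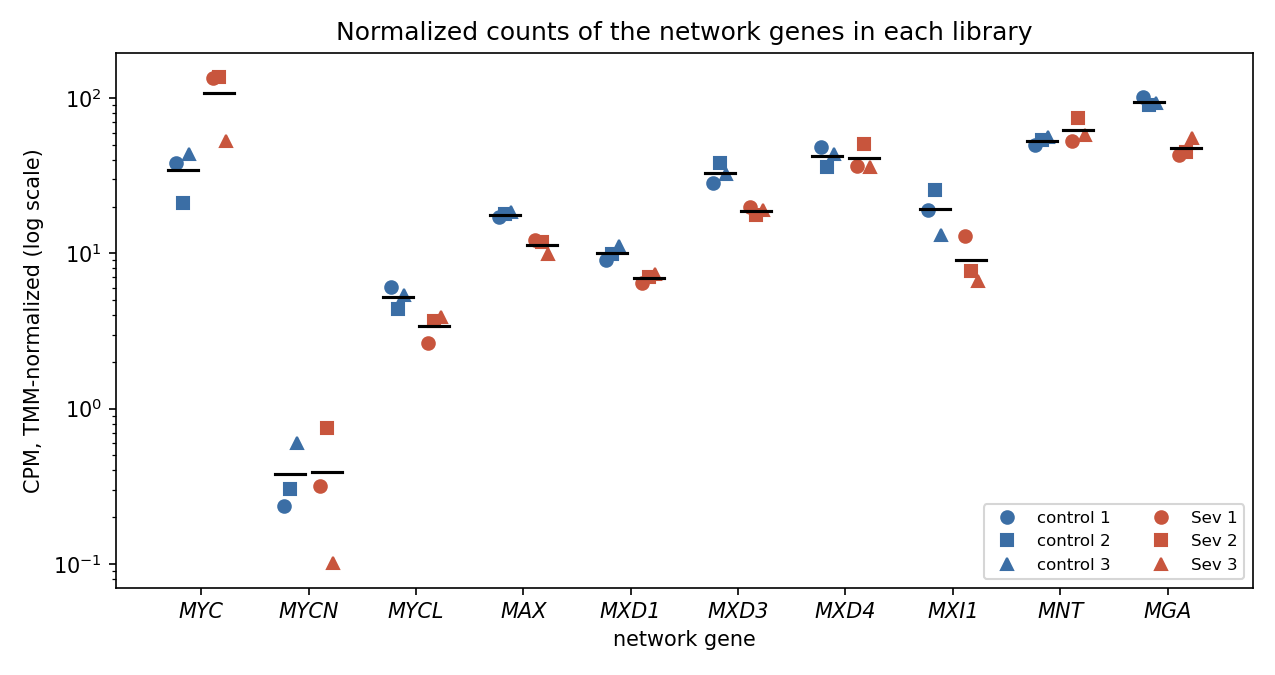
TMM-normalized CPM on a log axis for each network gene in the 3 control libraries (blue) and the 3 Sev-treated libraries (red), with a black line at each group mean. MYC lies higher in all Sev-treated libraries, with Sev library 3 at 53.1 CPM close to control library 3 at 43.9 CPM, and MAX, MXD3 and MGA lie lower in all of them.

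MYC (ENSG00000136997, GRCh38 chromosome 8, 127735434 to 127741434, plus strand), the most broadly used activator of the network, stood at 38.3, 21.2 and 43.9 CPM in the control libraries and at 134, 136 and 53.1 CPM in the Sev-treated libraries. All Sev-treated libraries were above all control libraries, but Sev library 3 was well below Sev libraries 1 and 2. The log2 fold change was 1.65 (SE 0.39, adjusted p = 0.011 by edgeR's quasi-likelihood test). Without each library in turn it ranged from 1.39 to 1.97, with adjusted p-values from 0.0024 to 0.038. Of the 15 alternative settings, limma on log2(FPKM + 1) without a filter was the single one that ended the call (log2 fold change 1.31, adjusted p = 0.062).

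MYCL (ENSG00000116990, GRCh38 chromosome 1, 39895426 to 39902256, minus strand), a MYC relative first found in lung cancer, stood at 6.03, 4.39 and 5.40 CPM in control and at 2.65, 3.67 and 3.91 CPM in Sev-treated cells. The groups did not overlap, and the log2 fold change was -0.63 (SE 0.21, adjusted p = 0.040 by edgeR). This call was lost without control library 1, control library 3, Sev library 1 or Sev library 2, with edgeR adjusted p-values of 0.12, 0.0995, 0.12 and 0.058. It was also lost without an expression filter (edgeR adjusted p = 0.058) and with limma on log2(FPKM + 1) without a filter (adjusted p = 0.089). MYCN (ENSG00000134323, GRCh38 chromosome 2, 15940564 to 15947007, plus strand), the relative amplified in neuroblastoma, was barely detected, with 10, 12 and 29 counts in control and 12, 28 and 4 counts in Sev-treated cells. Its groups overlapped, and at this depth the log2 fold change of 0.012 carried an SE of 0.67.

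MAX (ENSG00000125952, GRCh38 chromosome 14, 65006174 to 65102695, minus strand), the partner shared by the whole network, stood at 17.1, 17.8 and 18.5 CPM in control and at 12.2, 11.8 and 9.97 CPM in Sev-treated cells. The control libraries were tightly grouped and all lay above the Sev-treated ones. The log2 fold change was -0.65 (SE 0.12, adjusted p = 0.0040 by edgeR), and the call held in all 15 alternative settings, with log2 fold changes from -0.80 to -0.52. MAX shares its locus with FNTB, a subunit of farnesyltransferase on the opposite strand, and no annotated exons of the pair overlap. FNTB fell too, by 0.95 on the log2 scale (SE 0.16, adjusted p = 0.0026 by edgeR). The readthrough gene CHURC1-FNTB, with 25 to 113 counts, had a log2 fold change of -1.11 and lost its call without 5 of the 6 single libraries, all but control library 1. This call was also lost with DESeq2 size factors and without an expression filter (edgeR adjusted p = 0.051 and 0.076). The same held with limma on log2(FPKM + 1) without a filter (adjusted p = 0.12). The antisense gene ENSG00000259118, which has exons over those of MAX, had 29 to 55 counts and was not called (log2 fold change -0.43). The libraries were strand-specific, but whether strand was used in counting is not stated in the sources used here.

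Among the MXD genes 3 of 4 fell. MXD3 (ENSG00000213347, GRCh38 chromosome 5, 177301461 to 177312757, minus strand), an MXD gene expressed in proliferating cells, stood at 28.2, 38.2 and 32.5 CPM in control and at 20.0, 17.6 and 18.9 CPM in Sev-treated cells, without overlap. Its log2 fold change was -0.81 (SE 0.13, adjusted p = 0.0021 by edgeR) and the call held in all 15 alternative settings. Exons of MXD3 overlap those of RAB24 on the same strand, which was not called (log2 fold change -0.068), and those of PRELID1 on the opposite strand, which rose by 0.40 on the log2 scale (adjusted p = 0.0072 by edgeR) but was not called with limma on log2(FPKM + 1) without a filter (adjusted p = 0.054).

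MXI1 (ENSG00000119950, GRCh38 chromosome 10, 110207605 to 110287365, plus strand), a repressor in a region often lost in glioblastoma, stood at 19.1, 25.4 and 13.2 CPM in control and at 12.9, 7.74 and 6.59 CPM in Sev-treated cells. The groups did not overlap, although control library 3 and Sev library 1 almost met. The log2 fold change was -1.08 (SE 0.31, adjusted p = 0.023 by edgeR), the furthest below 0 among the 10 genes, but the call was lost without control library 1, control library 2, Sev library 2 or Sev library 3. The edgeR adjusted p-values were then 0.059, 0.074, 0.069 and 0.068, with log2 fold changes from -1.10 to -0.84.

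MXD1 (ENSG00000059728, GRCh38 chromosome 2, 69897688 to 69942945, plus strand), a repressor that rises when cells differentiate, stood at 9.08, 9.87 and 11.1 CPM in control and at 6.48, 7.03 and 7.37 CPM in Sev-treated cells. All Sev-treated libraries were lower, and the log2 fold change was -0.53 (SE 0.14, adjusted p = 0.016 by edgeR). Leaving out control library 3 or Sev library 1 ended the call, with edgeR adjusted p-values of 0.066 and 0.064. Its exons overlap on the same strand with those of SNRNP27, a splicing factor gene that was not called (log2 fold change 0.32) except without Sev library 1 (0.44, adjusted p = 0.043 by edgeR). MXD4 (ENSG00000123933, GRCh38 chromosome 4, 2247432 to 2262294, minus strand), the remaining MXD gene, stood at 48.1, 36.0 and 43.6 CPM in control and at 36.6, 51.0 and 36.2 CPM in Sev-treated cells. These ranges overlapped widely, with Sev library 2 the highest of all, and the log2 fold change of -0.046 (SE 0.16) was not called.

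MGA (ENSG00000174197, GRCh38 chromosome 15, 41621224 to 41773081, plus strand), a very large MAX partner that belongs to the Polycomb complex PRC1.6, gave the smallest p-value of the network. It stood at 101, 90.0 and 92.8 CPM in control and at 42.8, 44.7 and 55.3 CPM in Sev-treated cells, so every Sev-treated library was far below the lowest control library. The log2 fold change was -0.99 (SE 0.11, adjusted p = 0.00055 by edgeR), just short of the study's limit of 1, and the call held in all 15 alternative settings. MNT (ENSG00000070444, GRCh38 chromosome 17, 2384060 to 2401118, minus strand), a repressor present in most cells whatever their growth state, stood at 49.6, 53.3 and 56.0 CPM in control and at 53.0, 74.9 and 58.2 CPM in Sev-treated cells. The groups overlapped, Sev library 2 stood apart above the rest, and the log2 fold change of 0.23 (SE 0.13) was not called.

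**Figure D2:**
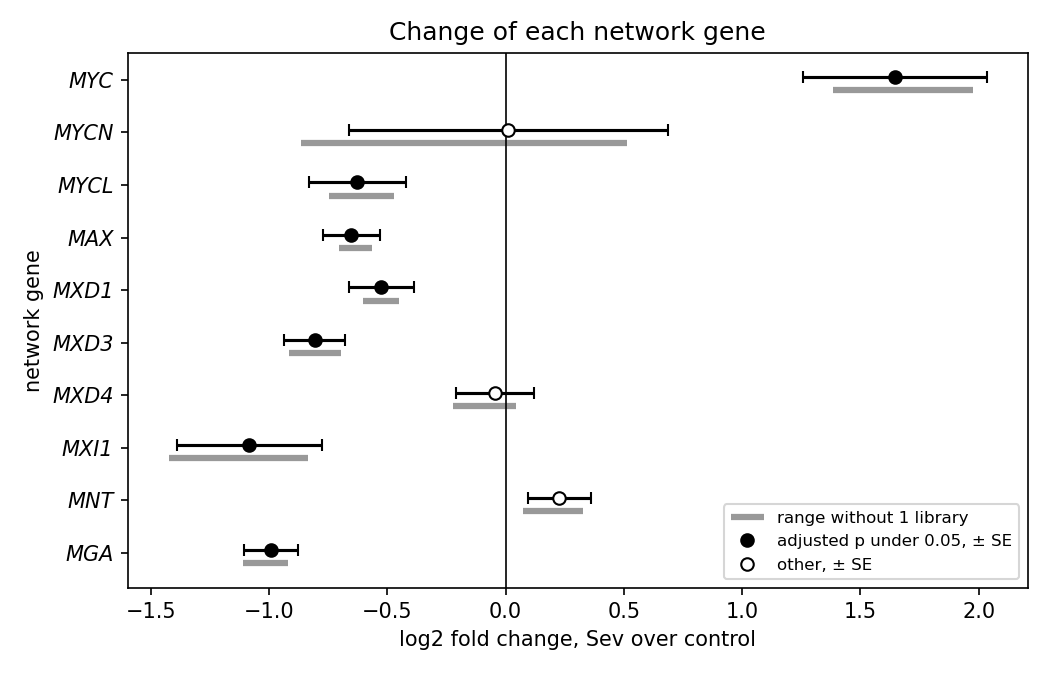
Log2 fold change of each network gene, Sev over control, with its standard error (points and bars), and the range of the same value when each library is left out in turn (grey). MYC lies at 1.65, the 6 genes called lower lie between -1.08 and -0.53, and the ranges of MYCN and MXD4 cross 0.

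FPKM, which is per gene length, allows levels of different genes to be set side by side. In control cells MYC (6.39 ± 2.25 FPKM, mean ± SD, n = 3), MXD3 (5.42 ± 0.71), MXD4 (5.27 ± 0.86), MNT (5.16 ± 0.26) and MGA (4.56 ± 0.37) formed the upper group, and the ranges of neighbours in this order overlapped. MXI1 (2.74 ± 0.85 FPKM) and MAX (2.40 ± 0.079 FPKM) followed, also with overlapping ranges, and below them MXD1 (1.33 ± 0.12 FPKM), MYCL (0.88 ± 0.15 FPKM) and MYCN (0.12 ± 0.060 FPKM) were each separate from the next. In Sev-treated cells MYC stood alone at 17.9 ± 7.58 FPKM (n = 3), its lowest library at 9.19 FPKM being above the highest MNT value of 6.39 FPKM. MNT (5.46 ± 0.86 FPKM) and MXD4 (4.59 ± 0.79 FPKM) overlapped, followed by MXD3 (2.80 ± 0.24 FPKM), MGA (2.08 ± 0.35 FPKM), MAX (1.37 ± 0.12 FPKM), MXI1 (1.17 ± 0.44 FPKM), MXD1 (0.83 ± 0.072 FPKM), MYCL (0.51 ± 0.11 FPKM) and MYCN (0.11 ± 0.091 FPKM). MXI1 overlapped both MAX and MXD1 there.

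The balance within a library, which does not depend on scaling between libraries, followed from these levels. The summed FPKM of MXD1, MXD3, MXD4, MXI1, MNT and MGA was 2.98, 5.32 and 2.61 times that of MYC, MYCN and MYCL in the control libraries. In the Sev-treated libraries it was 0.697, 0.793 and 1.70 times, so the groups did not overlap and Sev library 3 was the closest to control. The log2 ratio averaged 1.79 ± 0.55 in control and -0.031 ± 0.69 in Sev-treated cells (SD, n = 3 each), a difference of -1.82 that was not tested, because it is a score over chosen genes. FPKM of MYC was 3.08, 1.63 and 3.25 times that of MAX in control and 15.2, 15.9 and 7.40 times that of MAX in Sev-treated libraries. By contrast the summed repressor genes stood at 10.5, 10.5 and 9.61 times MAX in control and at 10.8, 13.0 and 13.4 times MAX in Sev-treated libraries. These are mRNA levels, and protein was not measured in these files.

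**Figure D3:**
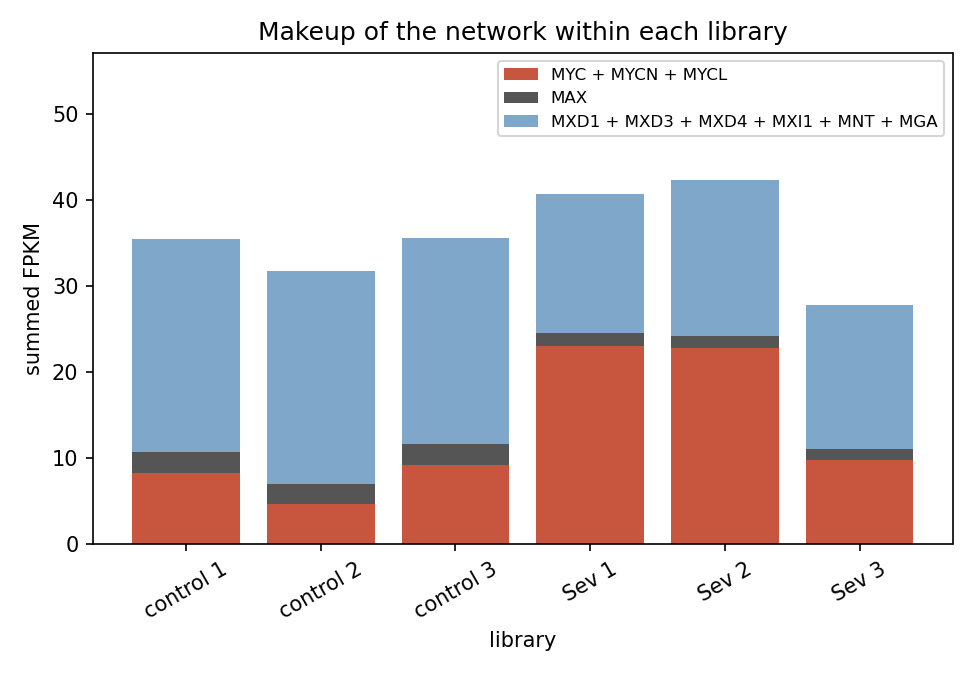
Summed FPKM of the MYC-type genes (red), MAX (grey) and the repressor genes (blue) in each library, stacked from 0. The MYC-type genes made up 14.7 to 25.8% of the network in control libraries and 35.4 to 56.8% in Sev-treated libraries.

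Genes that MYC is known to activate were mostly higher after Sev. All gene lists were chosen with earlier results of these data known, so their counts describe the data and test nothing. Of a list of 60, made up mainly of ribosome production, nucleotide, polyamine and mitochondrial genes, 59 were tested, 35 rose (59.3%), 1 fell and 23 were not called, and the median log2 fold change was 0.48 beside -0.0056 over all tested features. Among the 15189 tested protein-coding genes, 25.0% were higher and 21.0% were lower, and the median log2 fold change was 0.038. Past the study's threshold 9 of the 59 were higher and 0 lower, where 11.4% of all tested features were higher and 12.0% lower. Scaling by library size alone left 27 higher and 3 lower. ODC1, the first enzyme of polyamine synthesis, stood at 132, 140 and 150 CPM in control and at 318, 337 and 308 CPM in Sev-treated cells (log2 fold change 1.19, SE 0.082, adjusted p = 9.5e-05 by edgeR). WDR43, a factor of small-subunit ribosome assembly, went from 40.8, 53.2 and 45.7 CPM to 144, 128 and 142 CPM. The groups of both genes lay far apart. PPRC1, a coactivator of genes for mitochondria, and GRWD1, a histone-binding factor of ribosome assembly, rose by log2 fold changes of 1.13 (SE 0.088) and 1.25 (SE 0.10). CAD, the enzyme that starts pyrimidine synthesis, was the exception and fell from 143, 148 and 145 CPM to 101, 117 and 112 CPM (log2 fold change -0.41, adjusted p = 0.0051 by edgeR).

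**Figure D4:**
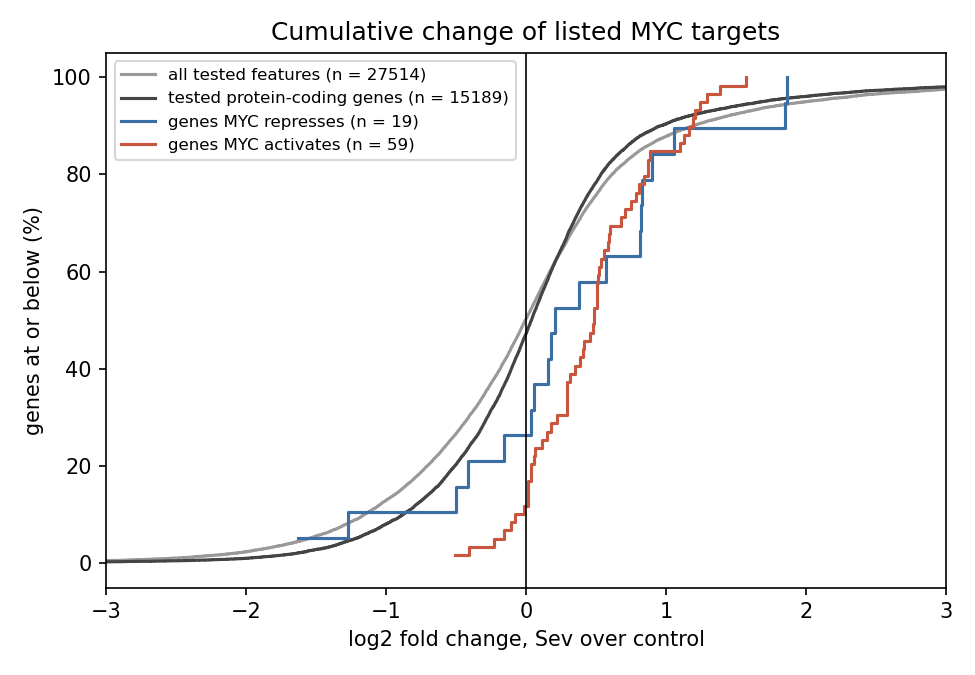
Cumulative share of genes (%) at or below each log2 fold change, for all tested features, tested protein-coding genes, the listed genes that MYC represses and the listed genes that MYC activates. The curve of the activated genes lies to the right, with a median of 0.48 beside 0.038 for tested protein-coding genes and -0.0056 for all features. The listed genes were chosen with earlier results of these data known.

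By library, the order of the target medians within the Sev group differed from the order of MYC. The median log2 ratio of the 59 genes to their control means was -0.18, 0.14 and 0.018 in control and 0.50, 0.38 and 0.55 in Sev-treated libraries. Sev library 3, with the lowest MYC of the Sev-treated libraries, had the highest median, and control library 2, with the lowest MYC of all, had the highest median among the controls. With 3 libraries per group no relation between the measures was tested.

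**Figure D5:**
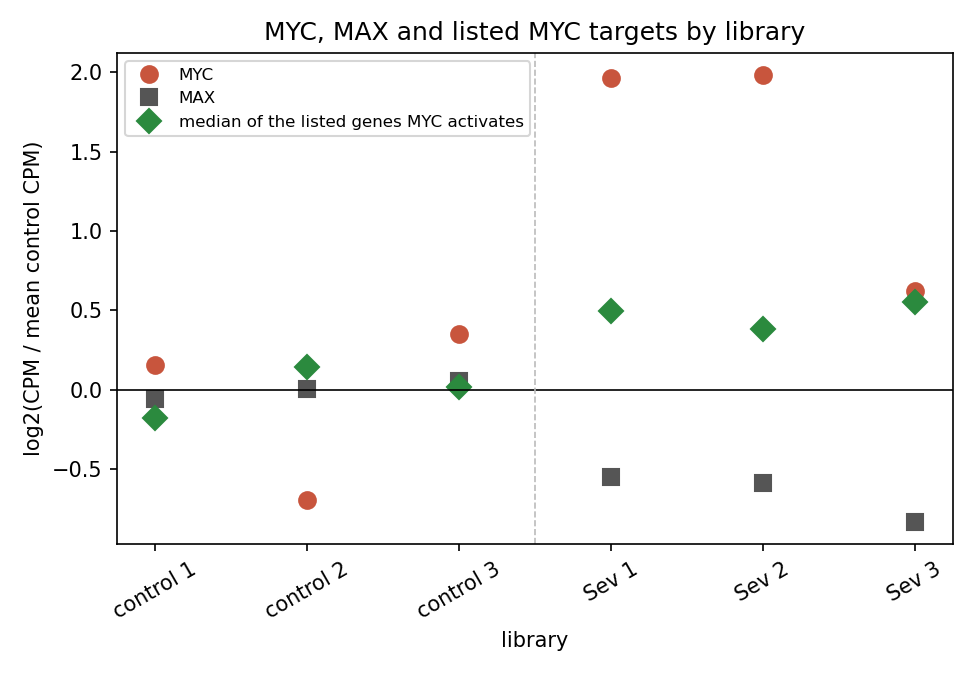
Log2 of CPM over the mean control CPM in each library for MYC, MAX and the median of the 59 listed genes that MYC activates. MYC is at 1.96, 1.98 and 0.62 in the Sev-treated libraries, whereas the target median is at 0.50, 0.38 and 0.55.

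Of 20 genes that MYC is known to repress, 19 were tested, 6 rose (31.6%) and 3 fell (15.8%), with a median log2 fold change of 0.20. These shares were near those of the tested protein-coding genes, 25.0% higher and 21.0% lower. The rising genes included the growth arrest genes GADD45A and GADD45B, with log2 fold changes of 1.85 (SE 0.14) and 1.86 (SE 0.13), the matrix gene THBS1 at 1.06 (SE 0.12) and the receptor gene TGFBR2 at 0.83 (SE 0.12). GADD45A stood at 24.6, 29.6 and 31.4 CPM in control and at 103, 117 and 88.2 CPM in Sev-treated cells. Those that fell were the cell cycle inhibitor CDKN1B, from 50.5, 56.2 and 54.6 CPM to 23.1, 24.2 and 19.3 CPM (log2 fold change -1.27, SE 0.11), CCNG2, an atypical cyclin of resting cells (-1.63, SE 0.16), and the collagen gene COL1A2 (-0.42, SE 0.13). COL1A2 lost its call without control library 1, control library 3, Sev library 1 or Sev library 3.

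The E-box that MAX dimers bind best, CACGTG, was looked for in the 250 bases upstream of RefSeq starts (GRCh38.p14), where it reads the same on both strands. It was present for 2110 of 27305 genes with a window (7.73%), or 6.34% of 35116 windows. MYC had no entry. Among the 9 network genes with an entry it was present for MXD4 and MNT, neither of which was called, and among 48 listed activated targets with an entry for 13 (27.1%). Tested genes with the site were higher in 25.8% and lower in 18.5% of 1413, and those without it in 23.9% and 21.8% of 12345. The stretches around the site, in capitals, are shown for both network genes and for ODC1, the named target that carries it, each 5′ to 3′ on the strand of the gene. They lie at chr4:2262315-2262359, chr17:2401221-2401280 and chr2:10448013-10448068, all minus strand, and the site begins 238, 193 and 29 bases upstream of the start. A match describes these letters and no binding was measured.
MXD4: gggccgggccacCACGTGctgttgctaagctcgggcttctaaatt
MNT: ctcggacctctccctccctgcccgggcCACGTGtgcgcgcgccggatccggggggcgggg
ODC1: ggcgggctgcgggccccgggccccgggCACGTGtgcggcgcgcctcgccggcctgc

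Partners of the repressors were listed next. Of 16 genes of the SIN3 corepressor, 2 rose (12.5%) and 4 fell (25.0%), with a median log2 fold change of 0.040. For comparison, 25.0% of the tested protein-coding genes were higher and 21.0% lower. SAP18 (0.52, SE 0.096) and BRMS1 (0.54, SE 0.13) rose. The scaffold gene SIN3B (-0.40, SE 0.079) and the subunit genes ARID4A (-0.67, SE 0.13) and ARID4B (-0.59, SE 0.10) fell, and SAP30 (-0.48, SE 0.16) lost its call without any single library other than Sev library 2. The SAP30 call was also lost without an expression filter (edgeR adjusted p = 0.059). Of 12 genes of PRC1.6, the complex of MGA, 4 rose (33.3%, beside the same 25.0%) and the other 8 were not called. The median log2 fold change was 0.12. RYBP, a subunit that stimulates ubiquitination of histone H2A, went from 41.6, 43.8 and 42.6 CPM to 100, 112 and 94.4 CPM (log2 fold change 1.26, SE 0.090). E2F6, the DNA-binding repressor of the complex, went from 15.5, 14.6 and 16.9 CPM to 34.4, 29.8 and 32.3 CPM (log2 fold change 1.04, SE 0.11). Thus both were higher in every Sev-treated library, where MGA was lower in every one. PCGF6 (0.50, SE 0.17) and WDR5 (0.51, SE 0.15) each lost their calls without 4 of the single libraries, for PCGF6 control libraries 1 and 3 and Sev libraries 1 and 2, and for WDR5 control libraries 1 and 3 and Sev libraries 1 and 3. Both calls were also lost with scaling by library size only (edgeR adjusted p = 0.11 and 0.087), without an expression filter and in the 3 FPKM settings, where RYBP and E2F6 kept theirs.

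Among 21 coactivators of MYC 7 rose (33.3%) and 2 fell (9.5%), with a median log2 fold change of 0.056. The tested protein-coding genes were higher in 25.0% and lower in 21.0%. The acetyltransferase genes EP300 (0.61, SE 0.077) and CREBBP (0.58, SE 0.10) and HCFC1 (0.64, SE 0.13), a cofactor that binds MYC directly, rose. LEO1, of the PAF1 elongation complex (-0.41, SE 0.11), lost its call without control library 2 or Sev library 1, and the acetyltransferase gene KAT2A (-0.36, SE 0.12) kept its call without control library 2 and lost it without each of the others. KAT2A also lost its call without an expression filter (edgeR adjusted p = 0.060). EP300 stood at 181, 173 and 173 CPM in control and at 251, 285 and 271 CPM in Sev-treated cells, without overlap.

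Of 26 genes that act on the stability of MYC protein, 6 rose (23.1%) and 4 fell (15.4%), with a median log2 fold change of 0.13. Among tested protein-coding genes the shares were 25.0% higher and 21.0% lower. USP36 (0.94, SE 0.080), a nucleolar deubiquitinase that stabilizes MYC, rose, and USP28 (-1.07, SE 0.10), a deubiquitinase that also stabilizes it, fell. USP36 stood at 85.8, 85.4 and 85.0 CPM in control and at 157, 158 and 179 CPM in Sev-treated cells, and USP28 at 29.3, 28.7 and 26.5 CPM and at 12.5, 14.0 and 13.8 CPM. Neither gene had overlapping groups. PPP2CA (0.63, SE 0.082), the catalytic subunit of the phosphatase PP2A, rose while CIP2A (-0.64, SE 0.12), a PP2A inhibitor that protects MYC, fell. The kinase gene PIM1 (1.01, SE 0.17) and the ubiquitin ligase gene FBXO32 (0.50, SE 0.12) rose, and the ligase gene BTRC (-0.43, SE 0.079) fell. The call of FBXO32 was lost in the 3 FPKM settings, with limma adjusted p-values from 0.059 to 0.11.

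MLX, which besides MXD1, MXD4 and MNT pairs with the nutrient sensors MLXIP and MLXIPL, forms the neighbouring branch of the network. MLX (log2 fold change -0.15, SE 0.18) and MLXIP (0.15, SE 0.10) were not called, and MLXIPL was at 4 to 19 counts and was filtered out. Their target TXNIP stood at 686, 237 and 386 CPM in control and at 240, 216 and 300 CPM in Sev-treated cells. Control library 1 was far above the other libraries, and the log2 fold change of -0.79 (SE 0.34) was not called (adjusted p = 0.094 by edgeR). Without control library 1 it was -0.31 (adjusted p = 0.32), and without control library 2 it was -1.09 and was called (adjusted p = 0.015). ARRDC4, the other listed target, had a log2 fold change of -0.20 (SE 0.25).

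Noncoding genes around the MYC locus were not called. PVT1, the long noncoding RNA gene next to MYC, stood at 88.0, 86.5 and 104 CPM in control and at 103, 88.8 and 103 CPM in Sev-treated cells, so its groups overlapped where those of MYC did not. CASC11 (log2 fold change 1.14, SE 0.74) had at most 0.319 CPM and CASC8 (0.37, SE 0.31) at most 1.49 CPM.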

How the data were processed

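Total RNA of U251 cells was made into strand-specific libraries, 3 control and 3 Sev-treated, grouped by their labels. The authors deposited counts per gene, without normalization, and a matching table of FPKM. The submitters' processing notes name bcl2fastq 2.19, featureCounts and hg18, without roles. The aligner and annotation are not given in the sources used here. Because the identifiers include newer Ensembl genes, positions were joined by identifier from GENCODE 29 (GRCh38) and symbols for 60295 identifiers from a symbol table.

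Counts were filtered with filterByExpr, scaled by TMM and fitted with the quasi-likelihood functions glmQLFit and glmQLFTest of edgeR 4.0.16 in R 4.3.3, 3 against 3, no covariate, with Benjamini-Hochberg adjustment over 27514 features. Standard errors are the absolute log2 fold change over the square root of the F statistic. Total counts were 38624292 to 46318311 per library, so that outside the lowest genes the 3 libraries a group set the precision. An exact permutation test of 3 against 3 could not reach 0.05. Replicate pairs differed beyond sampling noise in 51.7 to 69.9% of 13227 genes, so no library was counted as a duplicate. On counts simulated for this comparison, 26896 genes tested, the edgeR test called 94 of 100 genes changed by 1 on the log2 scale, 100 of 100 changed by 1.5 and 17 unchanged genes. The simulation gave every gene the same dispersion and changed few genes, all with a mean over 1 CPM. It therefore does not give the recovery for genes with a wider spread, such as MYC (SE 0.39), or for MYCN, which lay below 1 CPM.

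Alternatives were DESeq2 size factors, scaling by library size, DESeq2 1.42.0 with its Wald test, either no filter or one of 10 counts in each library, a replicate block, leaving out single libraries, and limma 3.58.1 on FPKM. There the scales were log2(FPKM + 1), with and without a filter of 0.5 FPKM in 3 libraries, and log2(FPKM + 0.1) with it. The members and the gene lists, from general knowledge, were chosen with earlier results of these data known. Named beyond the 10 members were all genes of lists of up to 8 with at least 10 counts in a library, up to 4 per direction with the smallest p among the called genes of longer lists, and genes overlapping a member. The results for some genes that this rule names are not reported here. Overlap partners with at most 19 counts in any library were not described, and the cell type markers were named for the check of the cells. Promoter sequences are from RefSeq, GRCh38.p14.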

Additional observations from a re-analysis of the deposited data

How the results depend on the processing

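Over the 15 settings with a fit, MYC was the gene called higher in all but log2(FPKM + 1) without a filter, where 0 of the 10 network genes were higher (limma adjusted p of MYC 0.062). Between 4 and 6 were lower in all 15, and 1 with the study's threshold. Of the activated targets, 26 to 37 were higher in the 15 settings and 9 with the study's threshold, and 3 were lower with library size only and in the 3 FPKM settings, against 0 with the study's threshold. The FPKM settings with the filter moved the median of all features to -0.11 and -0.17. The log2 ratio of repressor to MYC-type genes differed by -2.22 to -1.51 without single libraries and by -1.87 in CPM. Genes not called changed sign in some settings. MYCN was at -0.15 with library size only, at -0.019 with log2(FPKM + 1) without a filter and at -0.86 to 0.51 without single libraries. Without single libraries MXD4 ranged from -0.22 to 0.042, MLX from -0.27 to 0.083, ARRDC4 from -0.43 to 0.12 and RAB24 from -0.17 to 0.031. PVT1 was at -0.058 with library size only and at -0.047, -0.060 and -0.047 in the FPKM settings. The cause was not tested.

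Samples with the same replicate number did not deviate together (r = -0.0072, 0.0035 and 0.027 across genes), so the numbers were not taken as pairs. With the replicate block 1 network gene was higher and 5 were lower, 32 activated targets were higher and 1 was lower, and MYCN was at -0.11. MYCL was then at -0.63 with an edgeR adjusted p of 0.079, and SAP30 (0.057), LEO1 (0.054), KAT2A (0.073), COL1A2 (0.062) and CHURC1-FNTB (0.11) also had adjusted p-values over 0.05. Over all features 5228 were higher and 5021 lower with the block.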
